A study of Mus musculus with 2 samples.

Results

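MHC class I molecules display peptides from inside a cell on its surface, where CD8 T cells and natural killer cells read them. Each molecule is a heavy chain held by the shared light chain beta-2 microglobulin, and mice that differ in their heavy chain alleles reject each other's grafts. The classical heavy chains are found on nearly all nucleated cells, and transcription of the family is raised by interferons through short elements upstream of the genes. The 8 class I genes described here were chosen by name: the classical heavy chain genes H2-K1 and H2-D1, the light chain gene B2m, the Qa genes H2-Q4, H2-Q6 and H2-Q7, and the T region genes H2-T22 and H2-T23. All 8 were found, each with 1 entry, among the 27933 gene symbols of the count tables.

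Immune cells were taken from lymph nodes of BALB/c mice that had received a heart from a C57BL/6 donor (allogeneic) or from a BALB/c donor (syngeneic). The age label is 6 to 8 weeks in both groups, and the sources used here give neither the time after grafting nor the number of mice. Each group is 1 droplet library of single cells, so no difference has a replicate check, no test was made, and the library and the group cannot be told apart. The 95% intervals account for counting error alone.

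Unique molecular identifiers (UMIs) numbered 8415043 over 3500 barcodes in the allogeneic library and 46486632 over 7967 barcodes in the syngeneic library. The lowest barcode held 150 UMIs in the allogeneic and 3447 in the syngeneic library, so the barcode lists were not cut alike. After removal of barcodes under 200 genes or above 10% mitochondrial UMIs, 2106 allogeneic and 7957 syngeneic cells remained, with medians of 3147 and 4917 UMIs. Haemoglobin genes took 9.11% of the UMIs of the kept allogeneic cells and 0.114% of those of the kept syngeneic cells. The libraries shared 66 barcode sequences, of which 26 were kept in both. Cells were assigned to types by gates on marker UMIs, and 4 gates had at least 50 cells in each library: CD4 T (269 allogeneic and 1081 syngeneic cells), CD8 T (464 and 2365), Foxp3 T (90 and 128) and B (307 and 719). The 4 gates were checked against markers that no gate used. Cd2 and Lat summed to between 909 and 1633 CPM, the UMIs of a gene per 1000000 UMIs of the gate, in the T gates and at most 298 CPM in the B gate. Ebf1, a B cell transcription factor, had 1629.6 CPM in the allogeneic and 1172 CPM in the syngeneic B gate and at most 17.9 CPM in the T gates. Il2ra, Ikzf2 and Ctla4 summed to 974 CPM in the allogeneic and 838 CPM in the syngeneic Foxp3 T gate. Neutrophil RNA moved with the group: S100a8 and S100a9 summed to between 956 and 16147 CPM in the 4 allogeneic gates and to at most 79.7 CPM in the 4 syngeneic gates. In the allogeneic CD4 T and CD8 T gates most of it lay in 2 and 5 cells. Without the cells rich in neutrophil or dendritic RNA, the counts of class I genes at least 1.5-fold higher, given further on as 4 in each of these gates, were 5 and 5.

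The genes lie in the mouse MHC on chromosome 17, except B2m on chromosome 2. In the GRCm38 build with GENCODE M21 they run as H2-K1 at chr17:33996017-34000347 on the minus strand, H2-D1 at chr17:35262730-35267499, H2-Q4 at chr17:35379617-35385290, H2-Q6 at chr17:35424850-35430055 and H2-Q7 at chr17:35439155-35443773 on the plus strand, then H2-T23 at chr17:36029773-36032855 and H2-T22 at chr17:36037128-36042747 on the minus strand. B2m runs at chr2:122147686-122153083 on the plus strand. The stretch of each upstream region that holds the searched elements is printed from RefSeq (GRCm38.p6), because the response to interferon is the property on which the genes are compared further on. Each line reads 5′ to 3′ on the strand of its gene. In the first 5 lines the capitals on the left mark enhancer A, searched with any letter at the eighth place, and those on the right the class I interferon element, which is also the start of the capitals of H2-T22. The other capitals mark the general interferon-stimulated core, GAAA, any 2 letters and GAAA again, on either strand.
H2-K1, chr17:34000430-34000458: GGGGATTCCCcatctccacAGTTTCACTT
H2-D1, chr17:35262923-35262951: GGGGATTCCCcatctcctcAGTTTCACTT
H2-Q4, chr17:35379443-35379471: GGGGATTTCCcatctccccAGTTTCACTT
H2-Q6, chr17:35424677-35424705: GGGGATTCCCcatctccccAGTTTCACTT
H2-Q7, chr17:35439022-35439049: GGGGATTCCCatctccccAGTTTCACTT
H2-T22, chr17:36042915-36042944: aattggcttAGTTTCACTTTCgaatcccca
H2-T23, chr17:36032806-36032835: atcctactgcTTTCTCTTTCataaagacac
B2m, chr2:122147538-122147567: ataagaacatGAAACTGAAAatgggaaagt

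The 5 classical and Qa genes shared one arrangement, enhancer A followed by the class I interferon element. Enhancer A stood in 5 of the 8 upstream regions, against 0.266% of 27025 RefSeq promoter windows. The class I interferon element stood in 6 of the 8, against 0.163% of the windows. The 8 genes are themselves among these windows, and this element is named for class I genes, so finding it there is no independent result. The count of enhancer A is likewise a description and no independent result. The general core stood in 3 of the 8 (B2m, H2-T22 and H2-T23), against 3.49%, and in H2-T22 it overlaps the class I element. The shown stretches of H2-D1, H2-Q4 and H2-T23 overlap exons annotated in GENCODE. A match is a run of letters in a C57BL/6 reference, not a measured binding site, and the cells are from BALB/c recipients.

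The heavy chain genes are close copies, which limits what a count of 1 of them means. The H2-Q6 and H2-Q7 transcripts were 95% identical over their best local alignment of 1025 bases, H2-Q4 and H2-Q6 92.7% over 1293 bases, and H2-K1 and H2-D1 90.3% over 1475 bases. A 3′ library reads the transcript ends, so 41 windows of 100 bases in the last 500 bases were searched for exact copies in other genes. The rest of the transcripts was not searched in this way, so the ends are not compared with it. No window of H2-K1, H2-D1, B2m or H2-Q7 recurred exactly in another gene. Exact copies were found for 2 windows of H2-Q4, 2 of H2-Q6, 4 of H2-T23 and 8 of H2-T22. Those of H2-Q4 recurred in Gm43321, Olfr1238 and Olfr552 and those of H2-T23 in Rab33b and Hook2, none named as a class I gene. Those of H2-Q6 recurred in H2-Q4 and in Cd59b, Efr3a, Gm28625 and Gm43558. All 8 of H2-T22 recurred in H2-T10, which was on a list of other class I genes taken up further on. It was not among the 12 genes of that list with at least 50 UMIs over the kept cells of both libraries. Whether H2-T10 was absent from the count tables or had fewer UMIs is not given here. The sources used here do not say how reads that match several genes were counted or how BALB/c alleles aligned to the mm10 build, so single heavy chains are uncertain and sums of copies are given beside them.

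Of the classical heavy chains, which present peptides to CD8 T cells, both had higher CPM in the allogeneic library in every gate compared. H2-K1 had 2427 CPM in allogeneic and 1591 CPM in syngeneic CD4 T cells, 2086 and 1438 CPM in CD8 T cells, 2834 and 1682 CPM in Foxp3 T cells, and 1878 and 1237 CPM in B cells. The ratios, allogeneic over syngeneic, were 1.53 (1.46 to 1.60), 1.45 (1.40 to 1.5), 1.69 (1.55 to 1.83) and 1.52 (1.43 to 1.61) in that order of gates. H2-D1 had 7735 CPM in allogeneic and 5591 CPM in syngeneic CD4 T cells, 6619 and 4838 CPM in CD8 T cells, 9126 and 5657 CPM in Foxp3 T cells, and 6205 and 4163 CPM in B cells. Its ratios were 1.38 (1.35 to 1.42), 1.37 (1.34 to 1.39), 1.61 (1.54 to 1.69) and 1.49 (1.44 to 1.54). In both libraries the Foxp3 T gate held the highest CPM of both genes among the 4 gates and the B gate the lowest, although the syngeneic intervals of Foxp3 T and CD4 T cells overlapped. The intervals of the 2 libraries did not overlap for either gene in any of the 4 gates. The mix of both genes was nearly the same in both libraries, with H2-K1 at 23.9% of H2-K1 plus H2-D1 UMIs in allogeneic and 22.2% in syngeneic CD4 T cells, and at 23.2% and 22.9% in B cells.

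B2m, the light chain that every class I heavy chain needs to reach the surface, differed least of the 8 genes. It had 4240.4 CPM in allogeneic and 4232 CPM in syngeneic CD4 T cells, a ratio of 1.0 (0.969 to 1.04). In CD8 T cells it had 4345 CPM in the allogeneic and 4237 CPM in the syngeneic library, a ratio of 1.03 (1.0 to 1.05), and in Foxp3 T cells 4674 and 4270.0 CPM, a ratio of 1.09 (1.03 to 1.16). B cells had the largest ratio of B2m, 1.21 (1.16 to 1.26), with 3773 CPM in allogeneic and 3120.4 CPM in syngeneic cells. Relative to the light chain, the heavy chains were thus higher in the allogeneic library. The UMIs of the 7 heavy chains per UMI of B2m came to 3.04 (2.93 to 3.15) in allogeneic and 2.01 (1.98 to 2.04) in syngeneic CD4 T cells, and to 2.63 and 1.79 in CD8 T cells. The same quantity was 3.21 and 2.02 in Foxp3 T cells, and 2.79 and 2.07 in B cells. It is a ratio within a library and so does not depend on how the libraries were scaled to each other.

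**Figure D1:**
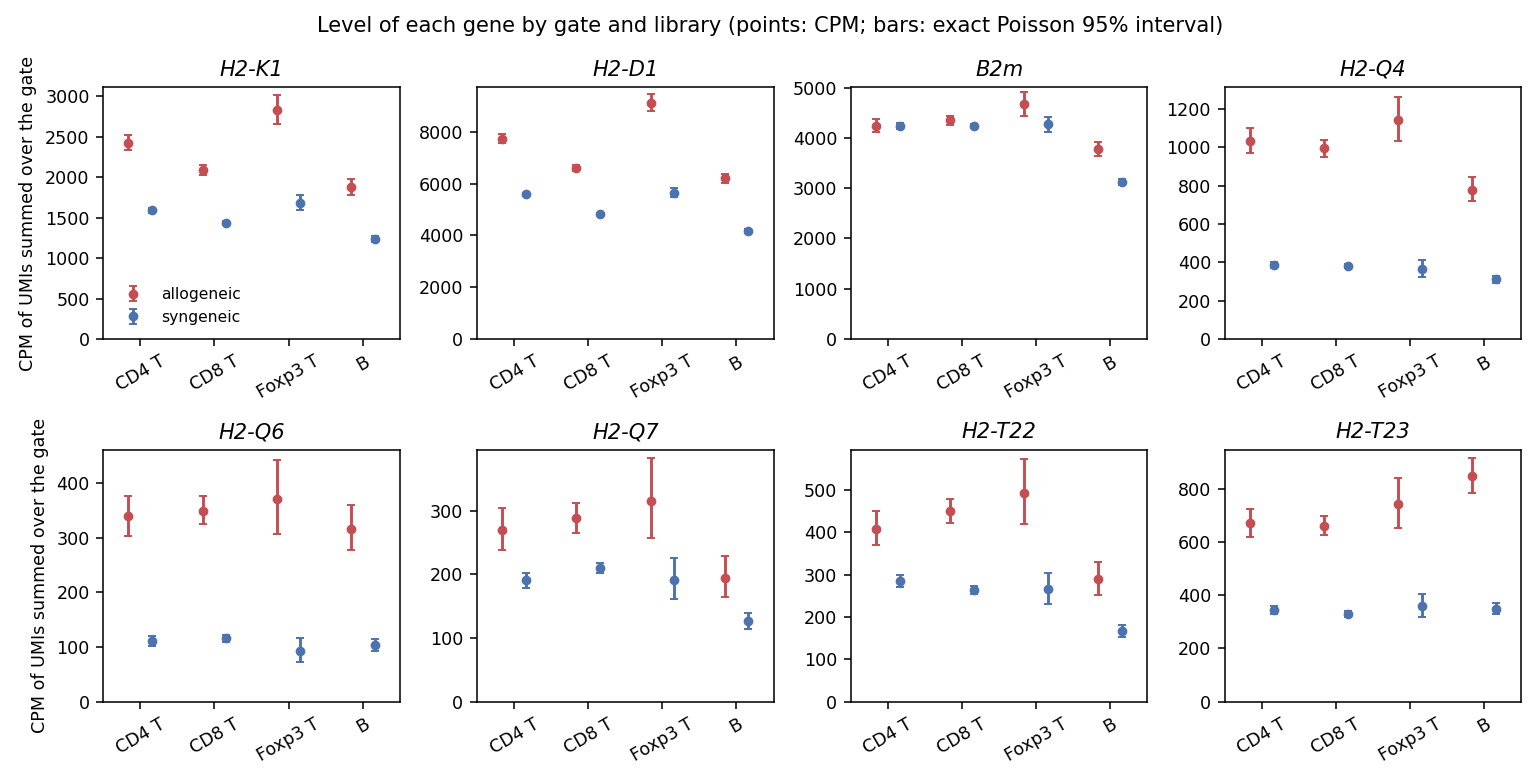
CPM of each class I gene (vertical axes, each from 0) in the 4 gates compared (horizontal axes), with the allogeneic library to the left of the syngeneic one; points are UMIs summed over the gate and bars are exact Poisson 95% intervals. H2-Q4 and H2-Q6 stand farthest apart between the libraries, and the B2m points of CD4 T cells, at 4240.4 and 4232 CPM, nearly coincide.

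The Qa genes, non-classical heavy chains of the Q region, held the largest ratios. H2-Q4 had 1036 CPM in allogeneic and 386 CPM in syngeneic CD4 T cells, 995 and 378 CPM in CD8 T cells, 1144 and 366 CPM in Foxp3 T cells, and 780.0 and 311 CPM in B cells. Its ratios were 2.68 (2.49 to 2.89), 2.63 (2.49 to 2.77), 3.13 (2.67 to 3.66) and 2.50 (2.26 to 2.77). H2-Q6, which with H2-Q7 encodes the Qa-2 antigen, had 339 CPM in allogeneic and 109.9 CPM in syngeneic CD4 T cells, 349 and 115 CPM in CD8 T cells, 370.2 and 91.8 CPM in Foxp3 T cells, and 316 and 103 CPM in B cells. Its ratios of 3.08 (2.69 to 3.53), 3.03 (2.76 to 3.31), 4.03 (2.98 to 5.49) and 3.09 (2.61 to 3.65) were the highest of the 8 genes in each gate. H2-Q7 differed less. It had 269.7 CPM in allogeneic and 191 CPM in syngeneic CD4 T cells, 288 and 211 CPM in CD8 T cells, 316 and 191 CPM in Foxp3 T cells, and 194 and 126 CPM in B cells, with ratios of 1.41 (1.23 to 1.62), 1.37 (1.25 to 1.5), 1.65 (1.27 to 2.13) and 1.54 (1.27 to 1.86).

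H2-Q6 and H2-Q7 were 95% identical over 1025 aligned bases, although no searched end window of either recurred exactly in the other. Their sum does not depend on how reads were placed between them. It was 2.02 (1.84 to 2.22), 1.96 (1.84 to 2.08), 2.42 (2.0 to 2.93) and 2.24 (1.97 to 2.53) times as high in the allogeneic library. The split of that sum also differed. H2-Q6 took 55.7% (51.6 to 59.7) of H2-Q6 plus H2-Q7 UMIs in allogeneic and 36.5% (34.2 to 39.0) in syngeneic CD4 T cells. The shares were 54.8% and 35.4% in CD8 T cells, 54.0% and 32.4% in Foxp3 T cells, and 62.0% and 44.9% in B cells. The exact binomial intervals did not overlap in any of the 4 gates. In the allogeneic barcodes under 200 genes, which were in no gate, the share was 50.8%. Whether the split comes from the genes or from how reads of close copies were placed in each library was not tested. All 3 Qa genes together took 12.8% of heavy chain UMIs in allogeneic and 8.08% in syngeneic CD4 T cells. The same share was 14.3% and 9.30% in CD8 T cells, 12.2% and 7.54% in Foxp3 T cells, and 12.3% and 8.37% in B cells.

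**Figure D2:**
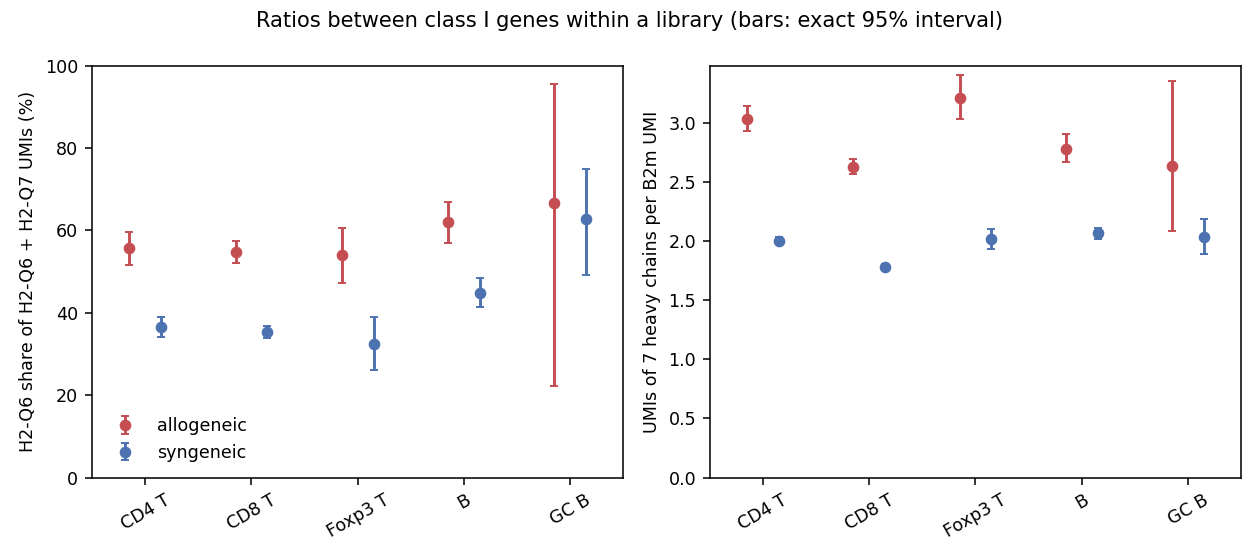
Left, H2-Q6 as a percentage of H2-Q6 plus H2-Q7 UMIs; right, UMIs of the 7 heavy chains per UMI of B2m (both vertical axes from 0), by gate and library, with the allogeneic library on the left of each pair and exact 95% intervals as bars. The allogeneic points lie above the syngeneic ones in the CD4 T, CD8 T, Foxp3 T and B gates, and the germinal centre B gate, with 8 allogeneic cells, has intervals too wide to tell its libraries apart.

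Of the T region genes, H2-T23 had higher ratios than the classical genes in each gate, and H2-T22 had a ratio below that of H2-K1 in CD4 T cells. H2-T23 encodes Qa-1, a ligand of the CD94 and NKG2 receptors of natural killer cells and some CD8 T cells. It had 671 CPM in allogeneic and 344 CPM in syngeneic CD4 T cells, 661 and 329.9 CPM in CD8 T cells, 744 and 359 CPM in Foxp3 T cells, and 849.6 and 349 CPM in B cells. Its ratios were 1.95 (1.78 to 2.13), 2.0 (1.88 to 2.13), 2.07 (1.73 to 2.47) and 2.43 (2.21 to 2.68). The intervals of its Foxp3 T and B ratios overlapped. H2-T22, recognised without peptide by a subset of gamma-delta T cells, had 408 CPM in allogeneic and 284 CPM in syngeneic CD4 T cells, 449 and 263 CPM in CD8 T cells, 492 and 265 CPM in Foxp3 T cells, and 289 and 166 CPM in B cells. Its ratios were 1.44 (1.29 to 1.61), 1.71 (1.58 to 1.84), 1.86 (1.5 to 2.29) and 1.74 (1.48 to 2.04). H2-T22 reads can also match H2-T10, as the windows above show.

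Genes were counted as apart at a ratio of at least 1.5 either way, provided that both libraries together held 50 UMIs or more. In CD4 T cells 4 of the 8 genes were at least 1.5-fold higher in the allogeneic library (H2-K1, H2-Q4, H2-Q6 and H2-T23), against 17.8% of 7574 genes. In CD8 T cells 4 of 8 were (H2-T22 in place of H2-K1), against 15.8% of 8984 genes. In Foxp3 T cells 7 of 8 were, all but B2m, against 17.2% of 3008 genes, and the count was 4 when cells were thinned to 1000 UMIs and 4 under stricter gates. In B cells 6 of 8 were, all but H2-D1 and B2m, against 19.6% of 6630 genes. None was at least 1.5-fold lower, against 12.7%, 11.6%, 14.1% and 17.6% of genes in the 4 gates. At least 2-fold higher were 2 in CD4 T, 3 in CD8 T, 3 in Foxp3 T and 3 in B cells, against 6.89%, 6.85%, 6.42% and 8.33% of genes. The counts of CD4 T, CD8 T and B cells rest on genes close to the threshold, such as H2-D1 at 1.49 in B cells and H2-K1 at 1.45 in CD8 T cells. The median log2 ratio of the 8 genes was 0.57, 0.65, 0.82 and 0.71 in the CD4 T, CD8 T, Foxp3 T and B gates, against 0.04, 0.03, 0.00 and 0.03 for all genes tested. Over whole libraries 3 of the 8 were at least 1.5-fold higher (H2-Q4, H2-Q6 and H2-T23), against 15.5% of 11183 genes, and none was at least 1.5-fold lower, against 16.9%. That count was 5 or 6 under alternatives given in the closing section, and B2m had a ratio of 0.959 that changed side of 1 with the scaling and the cell filter.

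**Figure D3:**
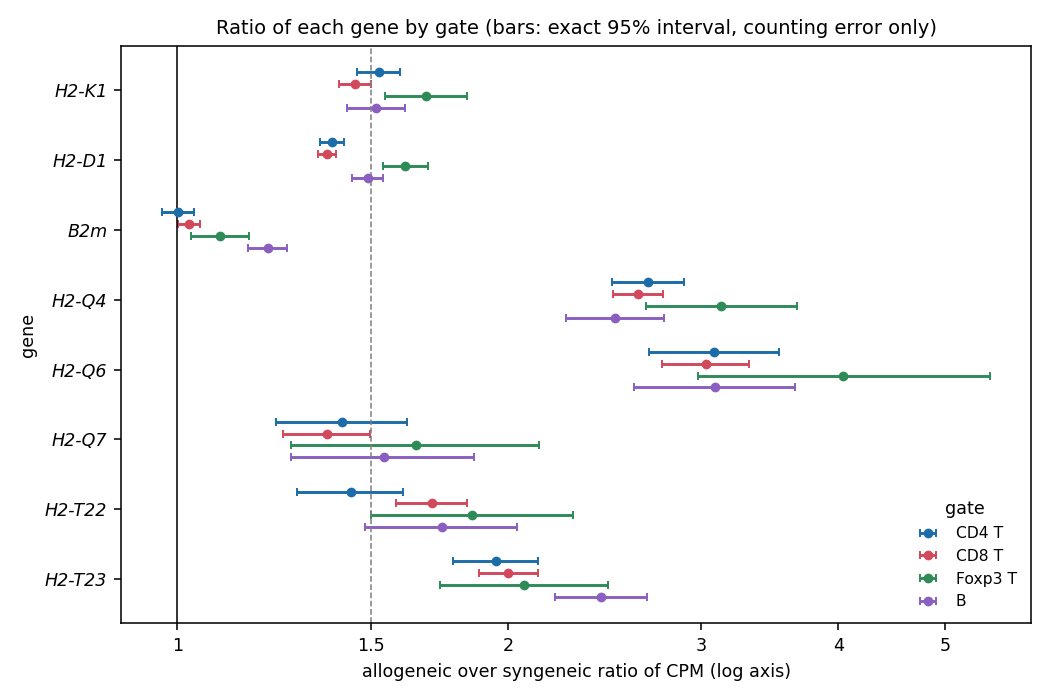
Allogeneic over syngeneic ratio of CPM (horizontal log axis) for each class I gene (rows) in the 4 gates compared (colours), with exact 95% intervals; the solid line marks 1 and the dashed line 1.5. B2m lies nearest to 1 in each gate, H2-K1, H2-D1 and H2-Q7 between 1.37 and 1.69, and H2-Q6 farthest right.

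**Figure D4:**
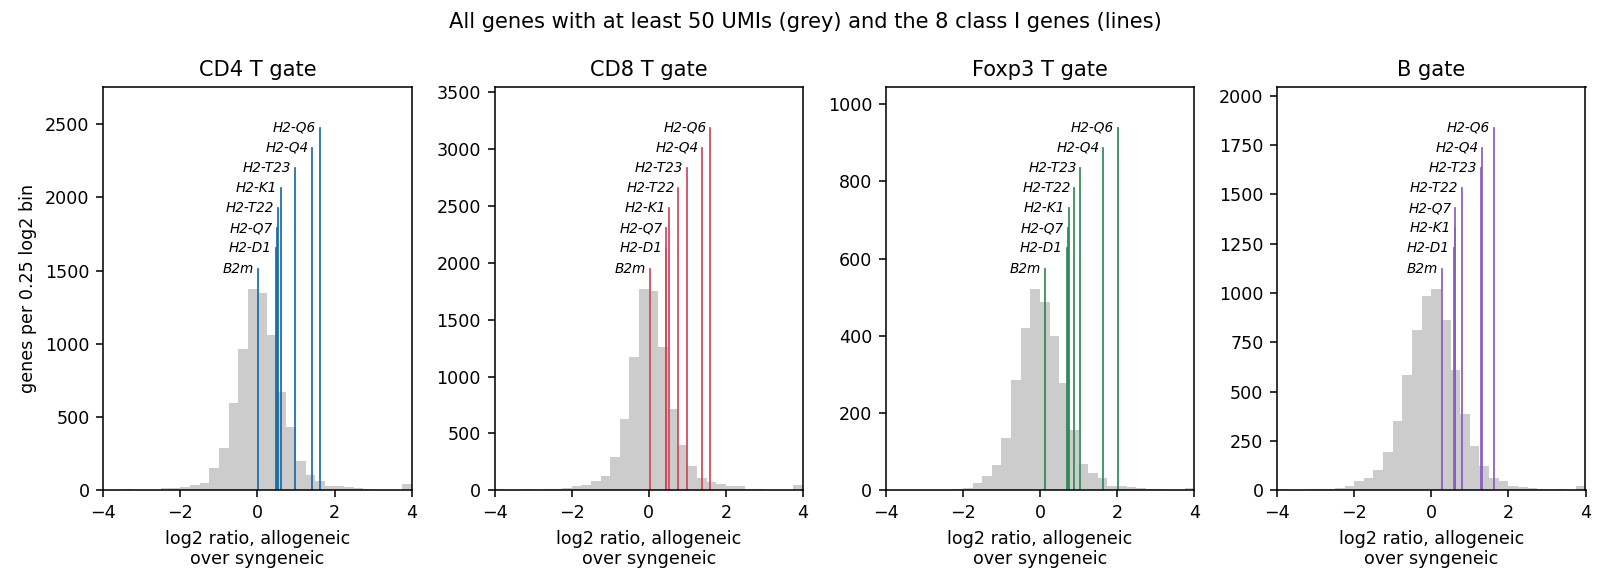
Number of genes (vertical axes) by log2 ratio, allogeneic over syngeneic (horizontal axes, ratios beyond the ends counted in the outermost bars), for all genes with at least 50 UMIs in each gate (grey), with the 8 class I genes as labelled lines. Apart from B2m, the class I lines lie to the right of the grey peak in the 4 gates, with H2-Q6 at 1.62, 1.60, 2.01 and 1.63.

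At an equal depth of 1000 UMIs a cell, H2-Q4, H2-Q6 and H2-T23 were also seen in more allogeneic cells. H2-Q4 had a UMI in 66.9% (60.9 to 72.6) of allogeneic and 33.7% (30.9 to 36.6) of syngeneic CD4 T cells at that depth, and in 96.3% and 80.9% before thinning. For H2-T23 the thinned shares were 50.6% and 28.8% in CD4 T cells and 58.4% and 31.6% in B cells. For H2-Q6 they were 32.7% and 10.9% in CD4 T cells and 24.5% and 9.32% in B cells. For H2-Q7 the thinned shares were 27.0% and 15.8% in CD4 T cells but had overlapping intervals in B cells, at 17.4% (13.3 to 22.2) and 13.4% (10.95 to 16.1). For H2-T22 they were 34.6% and 21.6% in CD4 T cells and overlapped in B cells, at 20.1% (15.7 to 25.1) and 15.3% (12.7 to 18.1). In Foxp3 T cells the intervals of H2-Q7 and H2-T22 overlapped too. Thinning left out 6 allogeneic CD4 T and 9 allogeneic B cells that were shallower, and no syngeneic cell. No gated type should lack class I genes, so a background share could not be read from one. From haemoglobin UMIs, free RNA was estimated at between 0.569% and 0.759% of the UMIs of the 4 allogeneic gates. The estimate takes the haemoglobin share of allogeneic barcodes under 200 genes, 64.4%, as that of free RNA, which was not tested. The syngeneic library had no such barcodes and so has no estimate.

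Since interferons induce class I genes, the cells of each gate and library were ranked by their share of UMIs from 8 other interferon-induced genes (Ifit1, Ifit3, Isg15, Irf7, Rtp4, Oasl2, Usp18 and Zbp1), and their upper and lower tertiles were compared. These 8 genes came to 3485 CPM in the upper and 361 CPM in the lower tertile of allogeneic CD4 T cells, and to 1108 and 53.1 CPM in the tertiles of syngeneic CD4 T cells. In allogeneic CD4 T cells the T region genes had the highest ratios of the 8. There H2-T22 had 597 CPM in the upper and 266 CPM in the lower tertile, a ratio of 2.25 (1.75 to 2.90), and H2-T23 had 932 and 422 CPM, a ratio of 2.21 (1.81 to 2.70). In allogeneic Foxp3 T cells, with 30 cells a tertile, the ratio of H2-T22 was 2.79 (1.87 to 4.22) and that of H2-T23 1.76 (1.30 to 2.41). H2-Q4 in allogeneic CD4 T cells had a ratio of 1.54 (1.32 to 1.80). H2-K1 had 1.44 (1.31 to 1.59), B2m 1.34 (1.24 to 1.44) and H2-D1 1.32 (1.25 to 1.39) in the same CD4 T cells. In syngeneic CD4 T cells the same ratios were lower, at 1.31 for H2-T22, 1.47 for H2-T23, 1.14 for H2-Q4, 1.10 for H2-K1, 1.13 for B2m and 1.09 for H2-D1. Upper over lower, 8 of the 8 genes were above 1 in allogeneic CD4 T cells, against 60.5% of all genes with at least 50 UMIs in the pair of tertiles, and 8 in syngeneic CD4 T cells, against 51.1%. In CD8 T cells 8 were in the allogeneic library, against 53.3%, and 8 in the syngeneic library, against 51.7%. In Foxp3 T cells 7 of 8 were in the allogeneic library, against 48.1%, and 7 of the 7 with enough UMIs in the syngeneic library, against 45.8%. In B cells the counts were 5 in the allogeneic library, against 46.9%, and 7 in the syngeneic library, against 47.9%. The whole interval lay above 1 for 7 and 7 of the 8 in allogeneic and syngeneic CD4 T cells. That number was 8 and 8 for CD8 T, 6 and 5 for Foxp3 T, and 4 and 4 for B cells.

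In allogeneic B cells the Qa genes were not higher in the upper tertile. H2-Q4 had 762 CPM in the upper and 818 CPM in the lower tertile of allogeneic B cells, a ratio of 0.931 (0.760 to 1.14), H2-Q6 had a ratio of 0.938 (0.685 to 1.28) and H2-Q7 one of 0.819 (0.530 to 1.26), so none of the 3 was separable from 1. In the same cells H2-T22 had a ratio of 1.25 (0.892 to 1.77), likewise not separable from 1, and H2-T23 had a ratio of 1.55 (1.27 to 1.90), B2m 1.25 (1.14 to 1.37), H2-K1 1.25 (1.10 to 1.42) and H2-D1 1.19 (1.11 to 1.27). H2-Q7 was also not separable from 1 in allogeneic Foxp3 T cells, at 0.864 (0.532 to 1.39), or in allogeneic CD4 T cells, at 1.31 (0.961 to 1.80), and whether B cells differ from T cells in these ratios was not tested. In syngeneic B cells 58.1% of cells had no UMI of the 8 ranking genes, so their lower tertile is an arbitrary draw among such cells. The Qa genes were not separable from 1 there either. Their ratios in syngeneic B cells were 1.01 (0.863 to 1.17) for H2-Q4, 1.02 (0.760 to 1.36) for H2-Q6 and 0.908 (0.708 to 1.16) for H2-Q7.

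For H2-Q4, H2-Q6, H2-K1 and H2-D1 the libraries also differed between tertiles with the opposite order of interferon-induced UMIs. The lower tertile of allogeneic CD4 T cells, with 361 CPM of the ranking genes, had 794 CPM of H2-Q4, against 422 CPM in the upper tertile of syngeneic CD4 T cells, with 1108 CPM of the ranking genes. That ratio, allogeneic lower over syngeneic upper tertile, was 1.88 (1.64 to 2.16) in CD4 T, 2.02 in CD8 T, 2.43 in Foxp3 T and 2.55 in B cells for H2-Q4, and 1.93 (1.49 to 2.48), 2.31, 2.91 and 3.85 for H2-Q6. H2-Q7 was not separable from 1 in the CD4 T, CD8 T and Foxp3 T gates. Its ratios there were 1.02 (0.794 to 1.31), 1.15 (0.976 to 1.35) and 1.49 (0.981 to 2.24). In B cells the ratio of H2-Q7 was 1.74 (1.24 to 2.41). For H2-T22 the same ratio was 0.803 (0.640 to 0.997), 1.05, 0.849 and 1.51, and for H2-T23 0.990 (0.826 to 1.18), 1.33, 1.21 and 1.65. For H2-K1 it lay between 1.21 and 1.33 and for H2-D1 between 1.16 and 1.43, with the intervals of both above 1 in the 4 gates. For B2m it was 0.814, 0.881, 0.929 and 1.01. The ranking genes of B cells stood closer, at 453 CPM in the allogeneic lower and 598 CPM in the syngeneic upper tertile. These are values within and between 2 libraries, and a ranking on few UMIs sorts cells only roughly.

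**Figure D5:**
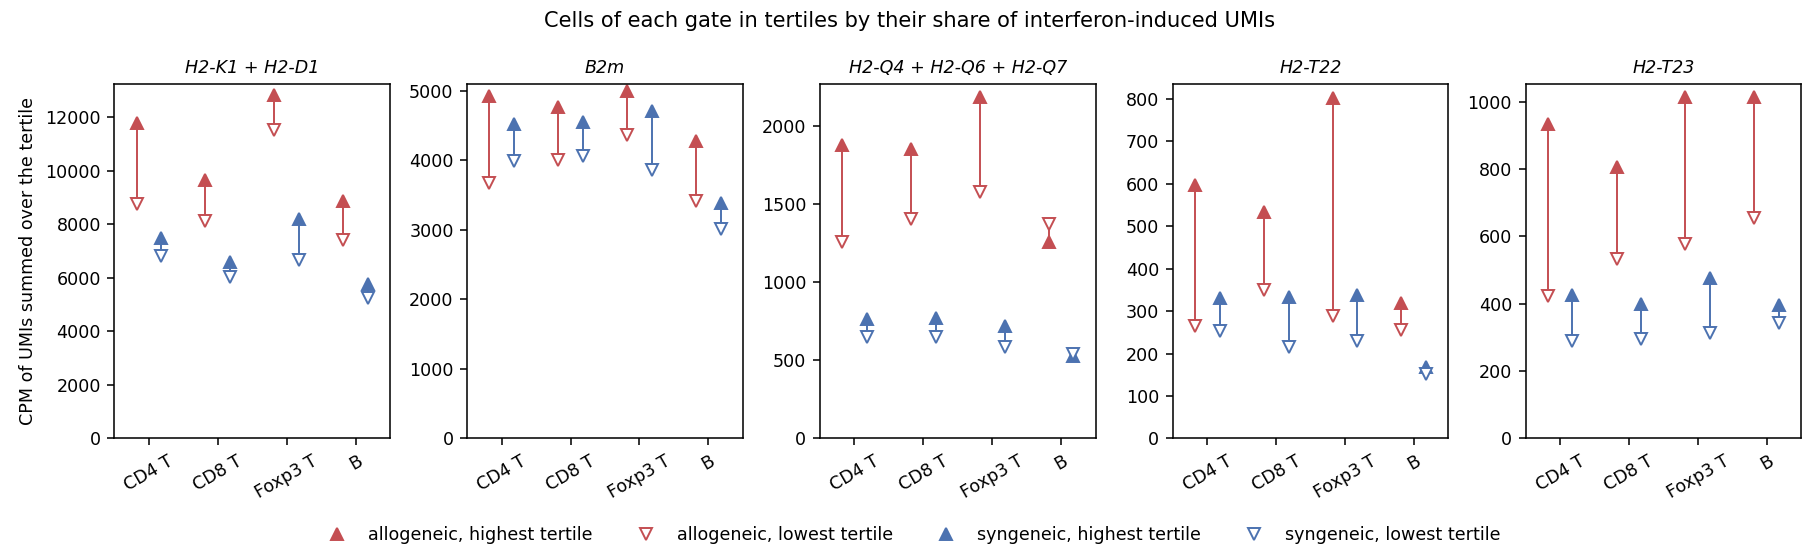
CPM of the summed classical genes, B2m, the summed Qa genes, H2-T22 and H2-T23 (vertical axes, each from 0) in the tertile of cells with most (filled, pointing up) and fewest (open, pointing down) interferon-induced UMIs, by gate, with the allogeneic library left of the syngeneic one. The open allogeneic symbols of the Qa sum lie above the filled syngeneic symbols in the 4 gates, with 1259 against 763 CPM in CD4 T cells, while for H2-T22 in CD4 T cells they lie below, at 266 against 331 CPM.

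Cell types with fewer cells, whose gates are less sure, spread more widely than the lymphocyte gates. The dendritic gate, with 12 allogeneic and 21 syngeneic cells, had the highest B2m of the gates, 9006 CPM (8062 to 10031) in the allogeneic and 11243 CPM (10739.6 to 11764) in the syngeneic library, and its H2-K1 plus H2-D1 stood at 9333 and 12150.2 CPM. Its heavy chain UMIs per B2m UMI, 1.34 and 1.29, were below those of the 4 lymphocyte gates. The 29 allogeneic C1q macrophage-gated cells, with a median of 530 UMIs, had 13042 CPM (11463 to 14778) of H2-K1 plus H2-D1, and the syngeneic library had no cell in that gate. The 31 syngeneic plasmacytoid dendritic cells had 8435 CPM of that sum and 696 CPM of H2-T23, and the allogeneic library had none. At the low end, 22 allogeneic neutrophil-gated cells had 3036 CPM (2766 to 3326) of H2-K1 plus H2-D1, with H2-K1 at 13.6% of it. Germinal centre B cells had 3553 CPM (3094 to 4061) in the allogeneic library, from 8 cells, and 2741 CPM (2617 to 2870) in the syngeneic library, from 78 cells, against 8083 and 5400.3 CPM in other B cells. Erythroid barcodes, in which haemoglobin took 92.8% of allogeneic and 84.0% of syngeneic UMIs, had 369 and 1152 CPM. Natural killer-gated cells, 2 and 9 in number, had 17606 CPM (14751 to 20852) in the allogeneic and 10554 CPM (9632 to 11539) in the syngeneic library. Of the markers that these gates did not use, Gzma stood at 12613 and 2781 CPM in natural killer-gated cells, but Prf1 had 5 UMIs in allogeneic and 1 UMI in syngeneic cells. In the dendritic gate Cst3 stood at 4598 and 7622 CPM, but H2-DMb2 at 381 and 252 CPM, below its 1321 and 1471 CPM in B cells.

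From low to high, H2-K1 plus H2-D1 in the allogeneic library ran from erythroid barcodes through neutrophils, germinal centre B, B, CD8 T, dendritic, CD4 T and Foxp3 T cells to C1q macrophages and natural killer cells. Neighbours whose intervals overlapped were neutrophils and germinal centre B cells, dendritic cells and both CD8 T and CD4 T cells, Foxp3 T cells and C1q macrophages, and C1q macrophages and natural killer cells. In the syngeneic library the order was erythroid, germinal centre B, B, CD8 T, CD4 T, Foxp3 T, plasmacytoid dendritic, natural killer and dendritic, and among neighbours the intervals of CD4 T and Foxp3 T cells overlapped.

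The genes that supply class I molecules with peptide did not move as one. Of 13 such genes, Tap1, a subunit of the peptide transporter, and Tapbp, the tapasin that ties it to class I heavy chains, were the 2 that were at least 1.5-fold higher in each of the 4 gates, a count near the share of all genes there (17.8%, 15.8%, 17.2% and 19.6%). Tapbp had 392 CPM in allogeneic and 207 CPM in syngeneic CD4 T cells, a ratio of 1.89 (1.68 to 2.13), and Tap1 had 246 and 148 CPM, a ratio of 1.65 (1.43 to 1.91). In CD4 T cells 3 of the 13 were at least 1.5-fold lower, against 12.7% of genes: the immunoproteasome subunit Psmb9 at 232 CPM in allogeneic and 353 CPM in syngeneic cells, the proteasome activator Psme2 at 298 and 494 CPM, and the chaperone calreticulin, Calr, at 182 and 306 CPM. Those at least 1.5-fold lower numbered 1 of 13 in CD8 T, 4 of 12 in Foxp3 T and 2 of 13 in B cells, against 11.6%, 14.1% and 17.6% of genes. The median log2 ratio of the list was -0.02, -0.18, -0.36 and -0.16 in the 4 gates.

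Among 13 regulators, those at least 1.5-fold higher were 3 of 13 measured in CD4 T, 3 of 13 in CD8 T, 1 of 6 in Foxp3 T and 5 of 12 in B cells, against 17.8%, 15.8%, 17.2% and 19.6% of genes. At least 1.5-fold lower were 1, 0, 0 and 2, against 12.7%, 11.6%, 14.1% and 17.6%. Stat2 and Irf9, which act together in the type I interferon signal, had ratios of 3.05 (2.12 to 4.36) and 1.80 (1.49 to 2.17) in CD4 T cells and of 2.10 and 2.71 in B cells. Nlrc5, the transactivator of class I genes, had few UMIs. It stood at 28.6 CPM in allogeneic and 15.8 CPM in syngeneic CD8 T cells, a ratio of 1.81 (1.33 to 2.43), and at 22.1 and 16.7 CPM in CD4 T cells, a ratio of 1.32 (0.786 to 2.12).

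Other heavy chain and class I-like genes were sparse. Of the list of 28, 20 were in the count tables. Of these, 7, 9, 1 and 4 reached 50 UMIs in the CD4 T, CD8 T, Foxp3 T and B gates. H2-M3, which presents N-formyl peptides, was the one measured in all 4, with ratios of 1.23 (0.929 to 1.60), 1.37 (1.15 to 1.62), 1.35 (0.788 to 2.25) and 0.816 in B cells. H2-Q10 had 33.1 CPM in allogeneic and 12.6 CPM in syngeneic CD4 T cells, a ratio of 2.62 (1.68 to 4.04), and H2-T24 had a ratio of 1.75 (1.04 to 2.84) there. In the 4 gates 2, 2, 0 and 1 of those measured were at least 1.5-fold higher, against 17.8%, 15.8%, 17.2% and 19.6% of genes, and 1, 1, 0 and 2 at least 1.5-fold lower, against 12.7%, 11.6%, 14.1% and 17.6%. Of the receptors that read class I, Klrd1, the CD94 chain that pairs with NKG2 to bind Qa-1, had 160 CPM in allogeneic and 118 CPM in syngeneic CD8 T cells, a ratio of 1.35 (1.19 to 1.52). Of the 7 receptor genes measured there, 1 was at least 1.5-fold higher, against 15.8% of genes, and 3 at least 1.5-fold lower, against 11.6%. The 7 include Cd8a and Cd8b1, whose UMIs formed the gate, so the count of lower genes is no result about the receptors. The higher one was Pirb, an inhibitory receptor of myeloid and B cells, at 24.1 CPM in allogeneic and 1.39 CPM in syngeneic cells, a ratio of 17.3 (9.90 to 31.6). S100a8 and S100a9 summed to 13465 CPM in allogeneic and 24.1 CPM in syngeneic cells of that gate, and the part of neutrophil RNA in the Pirb ratio was not tested. The lower ones were Klra3 at 0.252 (0.0673 to 0.665), Cd160 at 0.495 (0.251 to 0.891) and Cd8b1. Cd8a and Cd8b1 were used to form the CD8 T gate and are not read here.

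Class II genes, which present peptides to CD4 T cells, went another way. In B cells, which express them, none of 10 was at least 1.5-fold apart, against 37.3% of genes either way, with Cd74 at 22839 CPM in allogeneic and 24172 CPM in syngeneic cells and a median log2 ratio of -0.21 for the list. In the T gates 5 of 8 in CD4 T, 7 of 9 in CD8 T and 4 of 5 in Foxp3 T cells were at least 1.5-fold lower, against 12.7%, 11.6% and 14.1% of genes, and 1 of 8 in CD4 T cells, H2-Oa, was at least 1.5-fold higher. The lower ones were at levels such as 135 and 466 CPM of Cd74 in CD4 T cells, far below those of B cells.

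The genes most like the class I sums across gates were sought over the 10 points with at least 50 cells, after taking out each library's mean on a log2 scale. The points were the 4 gates of both libraries, allogeneic erythroid barcodes and syngeneic germinal centre B cells. They were ribosomal protein genes, led by Rpl36 with a Pearson r of 0.989 to H2-K1 plus H2-D1 and of 0.998 to the Qa sum, among 120 genes with 50 UMIs in each point. The 10 points share libraries and 1 of them is the erythroid point, which is low for most genes. Without it, over 9 points and 741 genes, the most like H2-K1 plus H2-D1 were Tmem59 and Itm2b (r of 0.981 and 0.980) and the most like the Qa sum was Gimap4 (r of 0.974). The list changed with 1 point, and these correlations are a description of 2 libraries.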

How the data were processed

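The authors deposited 1 table per library of UMI counts, whole and not normalised, by gene and barcode. The labels' protocols name a version 3 Chromium 3′ kit. The submitters' processing notes list Cell Ranger 2.2.0, STAR, Seurat 2.3.4 and mm10 without saying what each did. The sources used here do not say how barcodes were chosen.

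Kept barcodes had 200 genes or more and no more than 10% mitochondrial UMIs. Cells entered 11 gates by raw marker UMIs, cells with at least 50% haemoglobin UMIs first as erythroid, and 829 allogeneic (39.4%) and 3518 syngeneic (44.2%) kept cells entered none. No doublet caller was run: the T gate allowed at most 1 B marker UMI and the B gate at most 1 T marker UMI, 1 cell per library that met several gates was left out, and leaving out the 5% of cells with most UMIs was an alternative. UMIs were summed per gate and library and given as CPM with exact Poisson intervals. Ratios have exact conditional binomial intervals and shares Clopper-Pearson intervals. A count of 0 was taken as 3 UMIs in a ratio. PCR and library preparation are not covered by these intervals. With 1 library a group no p-value was computed. Gates with at least 50 cells in each library were compared, and the ratio calculation was tested on simulated data.

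The 8 genes, the 5 further lists, the gates and the rule for named genes (all 8, and up to 4 of each list with the highest CPM) were chosen with earlier results of these data known. Tap1, Tapbp in CD4 T cells, Psmb9, Calr, Stat2, Nlrc5, H2-Oa, Klra3 and Cd160 fall outside that rule and were chosen after their values were seen. Results on some genes of the lists and gate checks are not reported here. Motifs were searched on both strands of RefSeq promoter windows. Python 3.11.15, numpy 2.4.6, scipy 1.17.1, pandas 2.3.3 and matplotlib 3.10.9 were used.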

Additional observations from a re-analysis of the deposited data

Results flagged for a closer look

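The allogeneic barcodes under 200 genes are outside the comparisons, yet they carried class I RNA. The 7 heavy chains came to 3765 CPM (3604 to 3931) and B2m to 1326 CPM (1231 to 1426) over 1071 barcodes with a median of 189 UMIs. Haemoglobin genes took 64.4% of their UMIs. They were singled out because this signal lies in data the comparisons do not use and above the floor of 3 UMIs, which is 5.50 CPM there. The syngeneic library had no barcode under 200 genes to set beside them.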

How the results depend on the processing

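The alternatives changed the scaling, the cell filter, the depth of cells, free RNA, the weight of cells, doublets, the gates and the fold, and 1 more, chosen after seeing the data, took out cells rich in neutrophil or dendritic RNA. The counts of genes at least 1.5-fold higher moved with these choices, and the cause was not tested. At 1.5-fold they lay between 3 and 6 in CD4 T (6 thinned), between 4 and 5 in CD8 T (5 thinned), between 4 and 7 in Foxp3 T and between 4 and 7 in B cells (4 thinned). At 2-fold in place of 1.5-fold the counts were 2 in CD4 T, 3 in Foxp3 T and 3 in B cells. In Foxp3 T cells 4 of 7 genes with enough UMIs were apart when thinned to 1000 UMIs, and 4 of 6 under stricter gates, which left 22 allogeneic and 25 syngeneic cells. Over whole libraries the count was 5 with haemoglobin taken out, 5 under a filter of 500 genes and 5% mitochondrial UMIs, 5 thinned, 5 without the 5% of cells with most UMIs, 5 without the cells rich in neutrophil or dendritic RNA, and 6 as a mean over cells.

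The whole-library ratio of B2m, 0.959, turned to 1.002 under median-of-ratios scaling, 1.05 with haemoglobin taken out, 1.03 under the stricter cell filter, 1.02 thinned, 1.07 as a mean over cells, 1.06 without the 5% of cells with most UMIs and 1.03 without the cells rich in neutrophil or dendritic RNA. In the 4 gates the ratios of the 7 heavy chain genes stayed above 1 under each alternative, with H2-Q4 between 2.07 and 4.10, and B2m in CD4 T cells stood at 0.971 when only cells with at least 3447 UMIs were used. That choice of cells left 29 allogeneic B cells of 307 and gave the lowest ratio of H2-D1 in CD4 T, CD8 T and B cells (1.25, 1.29 and 1.31). It also gave the lowest ratio of the 7 summed heavy chains there, 1.37, 1.43 and 1.48, against 1.52, 1.51 and 1.63 without it. The whole-library ratio of that sum fell from 1.43 to 1.25. In CD4 T cells H2-T23 fell from 1.95 to 1.60 and H2-Q6 from 3.08 to 2.54. In B cells H2-Q4 and H2-Q7 instead had their highest ratios under that choice, 2.60 and 1.81. Depth limits the rarer genes: H2-Q7 in Foxp3 T cells rests on 104 allogeneic and 146 syngeneic UMIs. No paired analysis was possible because each group is 1 library.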

Other observations

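H2-M2, a class I-like gene of the M region chosen here after its values were seen, ran against the 8 genes. It had 45 UMIs in the allogeneic library (5.35 CPM, 3.90 to 7.16) and 2233 UMIs in the syngeneic library (48.0 CPM, 46.1 to 50.1) over all barcodes. In the syngeneic library 56 barcodes with at least 5 UMIs held 2159 of the 2233, and 54 of these 56 also had at least 3 UMIs of Fscn1 and Ccl22, markers of mature migratory dendritic cells. Such cells numbered 17 in the allogeneic and 63 in the syngeneic library. The syngeneic dendritic gate held 611 H2-M2 UMIs in 17 of its 21 cells, while 42 syngeneic cells gated as CD4 T or CD8 T held 522. The 4 allogeneic gates compared had 0 UMIs of H2-M2, with floors of between 1.48 and 9.10 CPM. How many of the T-gated cells with H2-M2 are 2 cells in 1 droplet was not tested.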
